A study of Mus musculus with 12 samples.

Results

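The genes of DNA replication were followed across 4 genotypes of mouse oocyte: 46 named genes of origin licensing, of the replication fork and of ribonucleotide reduction, out of 21565 genes with a probe set of their own on the array. They were chosen by name alone, through the current or an older symbol in the array's annotation, and a gene with several probe sets was read from the one with the highest mean. All 46 were found, and 7 of them (*Orc1* to *Orc6* and *Cdc45*) are listed by the annotation under an older symbol. The study asked what Ring1 and Rnf2, a pair of related catalytic subunits of Polycomb repressive complex 1 that ubiquitinate histone H2A, do during oocyte growth. RNA from fully grown oocytes still holding an intact germinal vesicle was amplified and hybridised to a whole-transcript microarray, with 3 arrays for each of the 4 genotypes. Every array holds 50 oocytes pooled from several females on a mixed 129/Sv and C57BL/6J background, 5 to 10 weeks old, primed with 5 U of PMSG (pregnant mare serum gonadotropin, which stimulates follicle growth) 46 h earlier and collected in 2.5 µM milrinone, which holds meiotic arrest.

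Control oocytes were Ring1+/+Rnf2F/F, with both genes intact and the Rnf2 alleles flanked by loxP sites. The Ring1 mutant was Ring1-/-Rnf2F/F, the Rnf2 mutant was Ring1+/+Rnf2F/FZp3-cre, and the double mutant was Ring1-/-Rnf2F/FZp3-cre. All 4 genotypes therefore carry the floxed Rnf2 alleles. The Zp3 promoter drives Cre in growing oocytes, so the Rnf2 deletion is directed to the oocyte, whereas the Ring1 genotype needs no Cre and is not limited to it. The control carries no Cre.

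As background, a cell prepares each replication origin in G1, when the origin recognition complex (ORC) together with Cdc6 and Cdt1 loads the ring-shaped MCM helicase onto DNA. The kinase made of Cdc7 and Dbf4, with the cyclin-dependent kinases, then recruits Cdc45 and the GINS complex, which turn MCM into an active helicase, and primase, the replicative polymerases, the sliding clamp Pcna with its loader, and the single-strand binding protein RPA assemble at the fork. A fully grown oocyte is arrested in meiotic prophase and does not replicate its DNA. It stores messenger RNAs and proteins that the embryo draws on for its first S phases.

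*Rnf2* itself was lower in the 2 genotypes that carry Zp3-cre. Its log2 intensity was 8.23 to 8.44 in control, 8.43 to 8.53 in the Ring1 mutant, 5.60 to 6.04 in the Rnf2 mutant and 5.68 to 6.01 in the double mutant. The *Ring1* probe set lay near the background of the array in all 4 genotypes (3.50 to 3.99) and did not check the Ring1 genotype. The 95th percentile of 1038 olfactory receptor genes, read here as genes the oocyte does not express, was taken as the floor of detection and lay at 3.77. The mean over the 12 arrays was above that floor for all 13 oocyte markers and for each of the 46 replication genes. Arrays of 1 genotype correlated at 0.996 to 0.997, and a double mutant array correlated with arrays of the other genotypes at 0.977 to 0.982.

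In the double mutant, 21 of the 46 replication genes were lower than in control and 1, *Rrm2*, was higher (limma moderated test over all 21565 genes, Benjamini-Hochberg adjusted p below 0.05). Over all genes, 17.5% were called lower and 14.4% higher in that comparison. Among the brightest 25% of genes, which hold 38 of the 46, the shares were 37.6% lower and 12.7% higher. The replication genes' 45.7% lower is therefore to be read against that 37.6%, and nothing particular to them follows from the count. The median log2 change was -0.17 for the 46, -0.04 for all genes and -0.11 for the brightest 25%. In the deposited scaling no member reached a log2 change of 1 in size. The 5 lowest adjusted p-values belonged to *Pole2*, *Rfc1*, *Pole*, *Pold2* and *Orc5*.

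**Figure D1:**
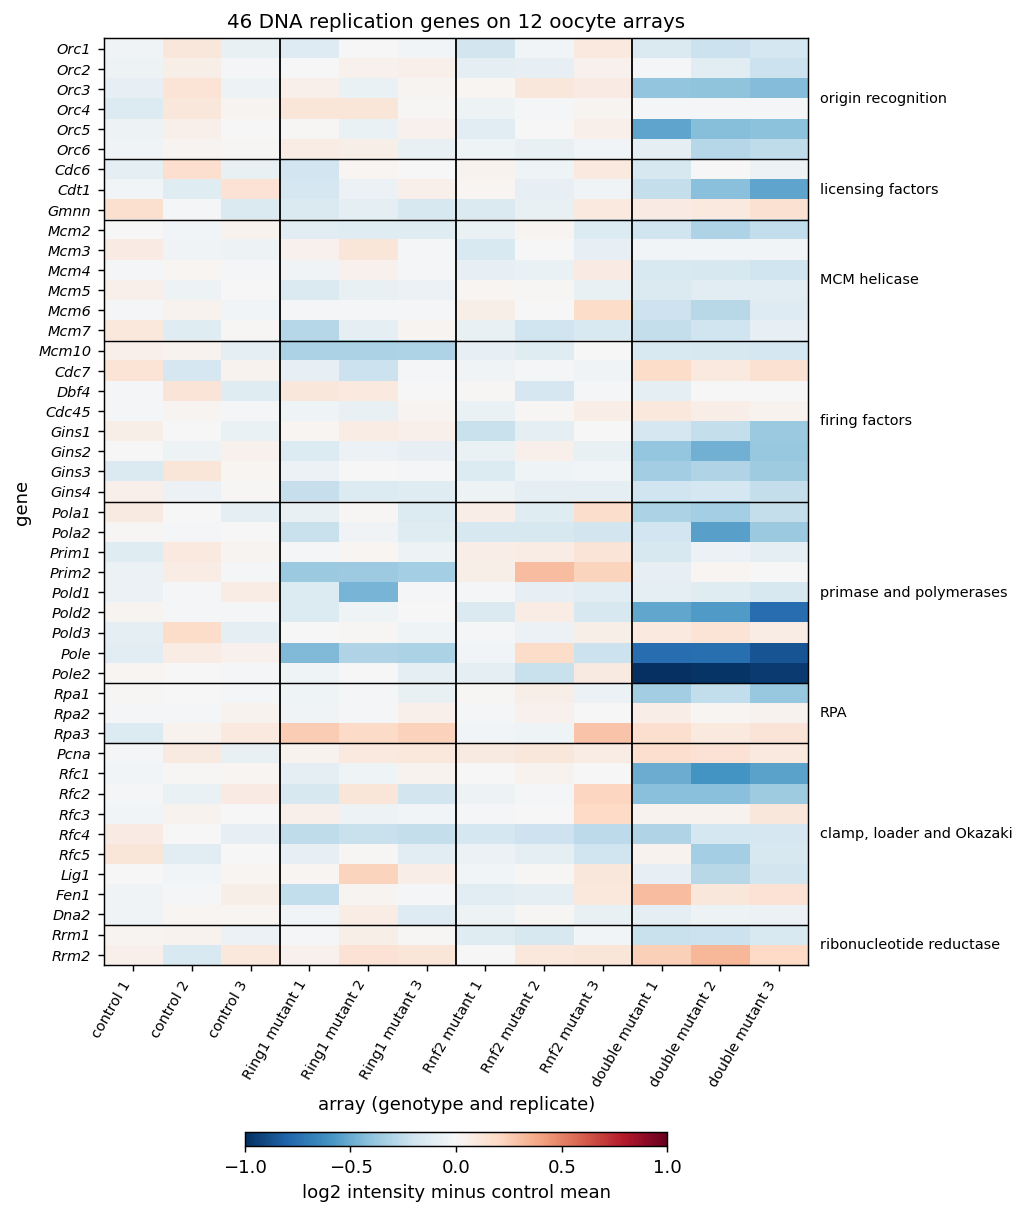
Heat map of the 46 replication genes (vertical axis, ordered by role) on the 12 arrays (horizontal axis, by genotype), coloured by log2 intensity minus the gene's control mean, from -1 (blue) to 1 (red). *Pole2*, *Pole* and *Pold2* are blue on the 3 double mutant arrays, and *Mcm10* and *Prim2* are blue on the 3 Ring1 mutant arrays.

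In bulk RNA from pooled oocytes, fewer cells of a type and less RNA per cell cannot be told apart, and the deposited values show each transcript relative to the rest of its own array. Each p-value sets a difference against the variation among the pools. The 3 control arrays enter every comparison with control, and the 3 double mutant arrays enter every comparison with the double mutant, so the counts below are not independent of one another.

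The promoters of members that moved and of members that did not are shown here because many S phase genes are targets of E2F factors, which bind sites such as TTTCCCGC, TTTCGCGC, TTTGCCGC and TTTGGCGC. These 4 motifs of 8 bases were searched on both strands, overlaps allowed, in the RefSeq promoters of assembly GRCm38.p6, from 250 bases before to 50 bases after the start of each gene. At least 1 was found in 744 of 32851 promoters (2.27%) and in 15 of the 47 promoters of members in the table (31.9%). Those 47 belong to 38 members, of which 15 had a match (39.5%). Among members with a promoter in the table, the motif was in 6 of the 15 called lower (40.0%). It was in 9 of the 22 that were not called (40.9%), so the share was about equal in both. *Gins1*, *Gins2*, *Gins4*, *Mcm4*, *Pole* and *Rfc2* were also called lower but have no promoter entry and were not searched. The *Pole2* promoter lies at chr12:69228141-69228440 on the minus strand and that of *Orc3* at chr4:34614893-34615192 on the minus strand. *Cdt1* (chr8:122567765-122568064, plus strand) and *Mcm5* (chr8:75109259-75109558, plus strand) lie on chromosome 8, and *Rfc1* (chr5:65335590-65335889, minus strand) has no match in its 300 bases. *Pole2*, *Orc3*, *Cdt1* and *Rfc1* were called lower, and *Mcm5* was not called. Each sequence runs 5′ to 3′ along the gene's own strand, with E2F motif matches in capitals.
Pole2: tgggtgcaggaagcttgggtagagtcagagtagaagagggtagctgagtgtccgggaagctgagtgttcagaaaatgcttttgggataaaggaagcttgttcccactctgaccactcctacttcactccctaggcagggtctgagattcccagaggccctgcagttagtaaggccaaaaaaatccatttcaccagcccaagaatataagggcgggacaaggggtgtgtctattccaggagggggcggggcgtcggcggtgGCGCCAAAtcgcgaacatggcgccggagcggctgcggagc
Orc3: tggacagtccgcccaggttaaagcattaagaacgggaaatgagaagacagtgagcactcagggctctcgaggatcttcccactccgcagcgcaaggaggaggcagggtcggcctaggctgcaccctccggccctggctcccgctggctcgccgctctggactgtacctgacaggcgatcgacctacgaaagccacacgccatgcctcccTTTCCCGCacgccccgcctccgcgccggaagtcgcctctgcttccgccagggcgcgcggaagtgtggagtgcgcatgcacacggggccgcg
Cdt1: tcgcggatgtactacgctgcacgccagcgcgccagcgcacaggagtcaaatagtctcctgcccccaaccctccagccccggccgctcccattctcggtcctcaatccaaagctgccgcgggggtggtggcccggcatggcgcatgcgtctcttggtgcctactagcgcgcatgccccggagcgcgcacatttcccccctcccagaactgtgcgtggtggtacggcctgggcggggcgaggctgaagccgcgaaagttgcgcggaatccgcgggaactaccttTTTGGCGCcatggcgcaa
Mcm5: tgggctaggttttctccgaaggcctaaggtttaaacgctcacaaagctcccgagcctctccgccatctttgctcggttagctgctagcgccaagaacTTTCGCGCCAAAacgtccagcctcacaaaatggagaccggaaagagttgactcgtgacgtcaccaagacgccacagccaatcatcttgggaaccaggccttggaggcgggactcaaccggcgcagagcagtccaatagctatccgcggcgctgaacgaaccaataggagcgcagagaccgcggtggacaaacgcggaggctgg
Rfc1: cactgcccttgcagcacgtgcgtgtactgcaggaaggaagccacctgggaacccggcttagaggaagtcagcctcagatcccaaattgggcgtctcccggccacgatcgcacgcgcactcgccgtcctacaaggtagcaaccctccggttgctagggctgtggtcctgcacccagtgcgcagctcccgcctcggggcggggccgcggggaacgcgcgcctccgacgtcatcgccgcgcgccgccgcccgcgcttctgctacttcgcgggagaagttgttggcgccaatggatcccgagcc
The match starts 11 bases after the start of *Pole2*, 41 bases before that of *Orc3* (position -41) and 33 bases after that of *Cdt1*. In *Mcm5* the motifs TTTCGCGC and GCGCCAAA overlap, beginning at positions -153 and -149. A match of letters is a description and no measured binding. The members' promoters held a median of 23 CpG dinucleotides, against 7 over all promoters. Every motif searched contains a CpG, and no share among promoters of like CpG content was computed. The part of CpG content in the members' higher share of matches was not tested.

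Of the 6 subunits of the origin recognition complex, 3 were called lower. *Orc5*, an ATP-binding subunit of the complex, read 9.01, 9.11 and 9.06 on the control arrays, 9.07, 8.997 and 9.11 on the Ring1 mutant arrays, 8.95, 9.06 and 9.11 on the Rnf2 mutant arrays and 8.54, 8.63 and 8.65 on the double mutant arrays. All 3 double mutant values lay below all 9 others, and the mean fell by 0.45 ± 0.065 (log2 ± SE) against control (limma adjusted p = 0.00017). *Orc3*, a core subunit, read 7.46, 7.68 and 7.49 in control, 7.59, 7.48 and 7.57 in the Ring1 mutant, 7.57, 7.66 and 7.63 in the Rnf2 mutant and 7.15, 7.15 and 7.11 in the double mutant. Again the double mutant arrays were the lowest 3 of the 12, with a fall of 0.41 ± 0.068 (limma adjusted p = 0.00054). *Orc6*, the smallest subunit and the one least tightly bound in mammals, read 9.85, 9.91 and 9.89 in control, 9.96, 9.94 and 9.81 in the Ring1 mutant, 9.84, 9.81 and 9.86 in the Rnf2 mutant and 9.79, 9.60 and 9.63 in the double mutant. Its double mutant values were also below the rest, but double mutant 1 came within 0.022 of the nearest of the 9, and the fall of 0.21 ± 0.067 (limma adjusted p = 0.028) ended as a call without control replicate 2 or 3 or double mutant replicate 2 or 3, with an adjusted p of up to 0.28 over all settings. *Orc1*, which binds chromatin at the origin, *Orc2* and *Orc4* had log2 changes of -0.18, -0.11 and -0.015 against control, none of them called.

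Of the licensing factors, *Cdt1* was called lower and *Cdc6* and *Gmnn* were not. *Cdt1*, which delivers the MCM ring to ORC, read 7.87, 7.78 and 8.05 in control, 7.73, 7.84 and 7.95 in the Ring1 mutant, 7.92, 7.82 and 7.86 in the Rnf2 mutant and 7.66, 7.48 and 7.37 in the double mutant. The double mutant arrays did not overlap the others, although they spread over 0.29 (log2) among themselves, and the mean fell by 0.39 ± 0.092 (limma adjusted p = 0.0053). *Gmnn* encodes geminin, the protein that binds and inhibits Cdt1 after licensing, and its log2 change of 0.11 was not called. *Cdc6*, the ATPase that works with ORC to load the helicase, differed by -0.071.

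The 6 subunits of the MCM2-7 helicase had log2 changes from -0.25 to -0.028 in the double mutant, all below 0 (with arrays centred on the brightest 25% of genes, *Mcm3* was at 0.085), and 3 of them were called. *Mcm2* read 8.88, 8.85 and 8.92 in control, 8.78, 8.77 and 8.76 in the Ring1 mutant, 8.81, 8.91 and 8.75 in the Rnf2 mutant and 8.69, 8.58 and 8.64 in the double mutant. Its lowest 3 values were those of the double mutant, with a fall of 0.25 ± 0.060 (limma adjusted p = 0.0064). *Mcm6* read 8.82, 8.87 and 8.80 in control, 8.81, 8.82 and 8.82 in the Ring1 mutant, 8.89, 8.84 and 9.01 in the Rnf2 mutant and 8.62, 8.55 and 8.70 in the double mutant, a fall of 0.21 ± 0.064 (limma adjusted p = 0.027). *Mcm4* read 8.99, 9.02 and 8.99 in control, 8.97, 9.04 and 8.99 in the Ring1 mutant, 8.92, 8.94 and 9.08 in the Rnf2 mutant and 8.85, 8.84 and 8.80 in the double mutant, a fall of 0.17 ± 0.060 (limma adjusted p = 0.045). Neither gene's double mutant arrays overlapped the other 9, but the *Mcm6* call ended without control replicate 1 or 2 or double mutant replicate 1 or 2, and the *Mcm4* call held in 6 of 21 other settings and ended without any single control, Ring1 mutant or double mutant array or without Rnf2 mutant replicate 2, with adjusted p up to 0.30 and 0.48. *Mcm3*, *Mcm5* and *Mcm7*, the other subunits of the ring, were not called.

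All 4 subunits of GINS, which joins MCM and Cdc45 in the active helicase, were called lower in the double mutant. *Gins2* read 9.62, 9.57 and 9.66 in control, 9.48, 9.56 and 9.54 in the Ring1 mutant, 9.56, 9.67 and 9.55 in the Rnf2 mutant and 9.23, 9.14 and 9.24 in the double mutant. It fell by 0.42 ± 0.061 (limma adjusted p = 0.00019), and its double mutant arrays were clear of the other 9. *Gins3* read 7.15, 7.41 and 7.31 in control, 7.23, 7.29 and 7.27 in the Ring1 mutant, 7.16, 7.25 and 7.26 in the Rnf2 mutant and 6.94, 6.99 and 6.94 in the double mutant, a fall of 0.33 ± 0.071 (limma adjusted p = 0.0027), again with no overlap. *Gins1* read 9.31, 9.26 and 9.19 in control, 9.28, 9.33 and 9.30 in the Ring1 mutant, 9.03, 9.16 and 9.25 in the Rnf2 mutant and 9.08, 9.02 and 8.88 in the double mutant. Rnf2 mutant 1 fell among the double mutant values, and the fall against control was 0.26 ± 0.074 (limma adjusted p = 0.017). *Gins4* read 10.39, 10.28 and 10.35 in control, 10.11, 10.20 and 10.22 in the Ring1 mutant, 10.29, 10.25 and 10.24 in the Rnf2 mutant and 10.14, 10.17 and 10.10 in the double mutant. Its Ring1 mutant arrays overlapped those of the double mutant, which fell by 0.20 ± 0.058 against control (limma adjusted p = 0.017). The *Gins1* and *Gins4* calls ended without control replicate 1 or double mutant replicate 3, with adjusted p up to 0.14 and 0.27. The firing kinase subunits *Cdc7* and *Dbf4*, *Cdc45* and *Mcm10*, a fork protein that helps activate the helicase, had log2 changes of 0.15, -0.028, 0.070 and -0.16, none of them called.

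The polymerases held the largest changes. *Pole2*, the second subunit of DNA polymerase epsilon, which copies the leading strand, read 6.56, 6.54 and 6.53 in control, 6.50, 6.54 and 6.45 in the Ring1 mutant, 6.45, 6.32 and 6.63 in the Rnf2 mutant and 5.54, 5.56 and 5.59 in the double mutant. Every double mutant array was at least 0.73 below the lowest of the other 9, and the mean fell by 0.98 ± 0.073, to 0.51 of the control level (limma adjusted p = 7.3e-07). *Pole*, the catalytic subunit, read 6.68, 6.87 and 6.84 in control, 6.35, 6.49 and 6.48 in the Ring1 mutant, 6.77, 6.98 and 6.58 in the Rnf2 mutant and 6.04, 6.05 and 5.94 in the double mutant. The double mutant was lowest and the Ring1 mutant arrays lay between it and control, overlapping neither, and the fall in the double mutant was 0.79 ± 0.095, to 0.58 of control (limma adjusted p = 3.9e-05). *Pold2*, the accessory subunit of polymerase delta, which copies the lagging strand, read 8.41, 8.36 and 8.37 in control, 8.24, 8.34 and 8.38 in the Ring1 mutant, 8.24, 8.45 and 8.22 in the Rnf2 mutant and 7.86, 7.81 and 7.62 in the double mutant. The double mutant arrays were clear of the rest, with a fall of 0.62 ± 0.082 (limma adjusted p = 8.8e-05). *Pold3*, another polymerase delta subunit, read 9.27, 9.54 and 9.26 in control, 9.35, 9.37 and 9.32 in the Ring1 mutant, 9.35, 9.30 and 9.42 in the Rnf2 mutant and 9.46, 9.49 and 9.43 in the double mutant, and these overlapped, with a log2 change of 0.10 that was not called. The catalytic subunit *Pold1* differed by -0.13 and was not called either.

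Polymerase alpha works with primase to start each new strand with a short RNA and DNA primer. *Pola2*, its accessory subunit, read 7.74, 7.71 and 7.73 in control, 7.50, 7.69 and 7.60 in the Ring1 mutant, 7.57, 7.57 and 7.55 in the Rnf2 mutant and 7.53, 7.18 and 7.35 in the double mutant. Double mutant 1 lay within the range of the single mutants, and the mean fell by 0.37 ± 0.083 against control (limma adjusted p = 0.0041). The catalytic subunit *Pola1* fell by 0.30 ± 0.083 (limma adjusted p = 0.015), with its double mutant arrays below the other 9, and lost the call without control replicate 1, with an adjusted p of up to 0.11. The primase subunits *Prim1* and *Prim2* had log2 changes of -0.11 and -0.020 in the double mutant, neither of them called.

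**Figure D2:**
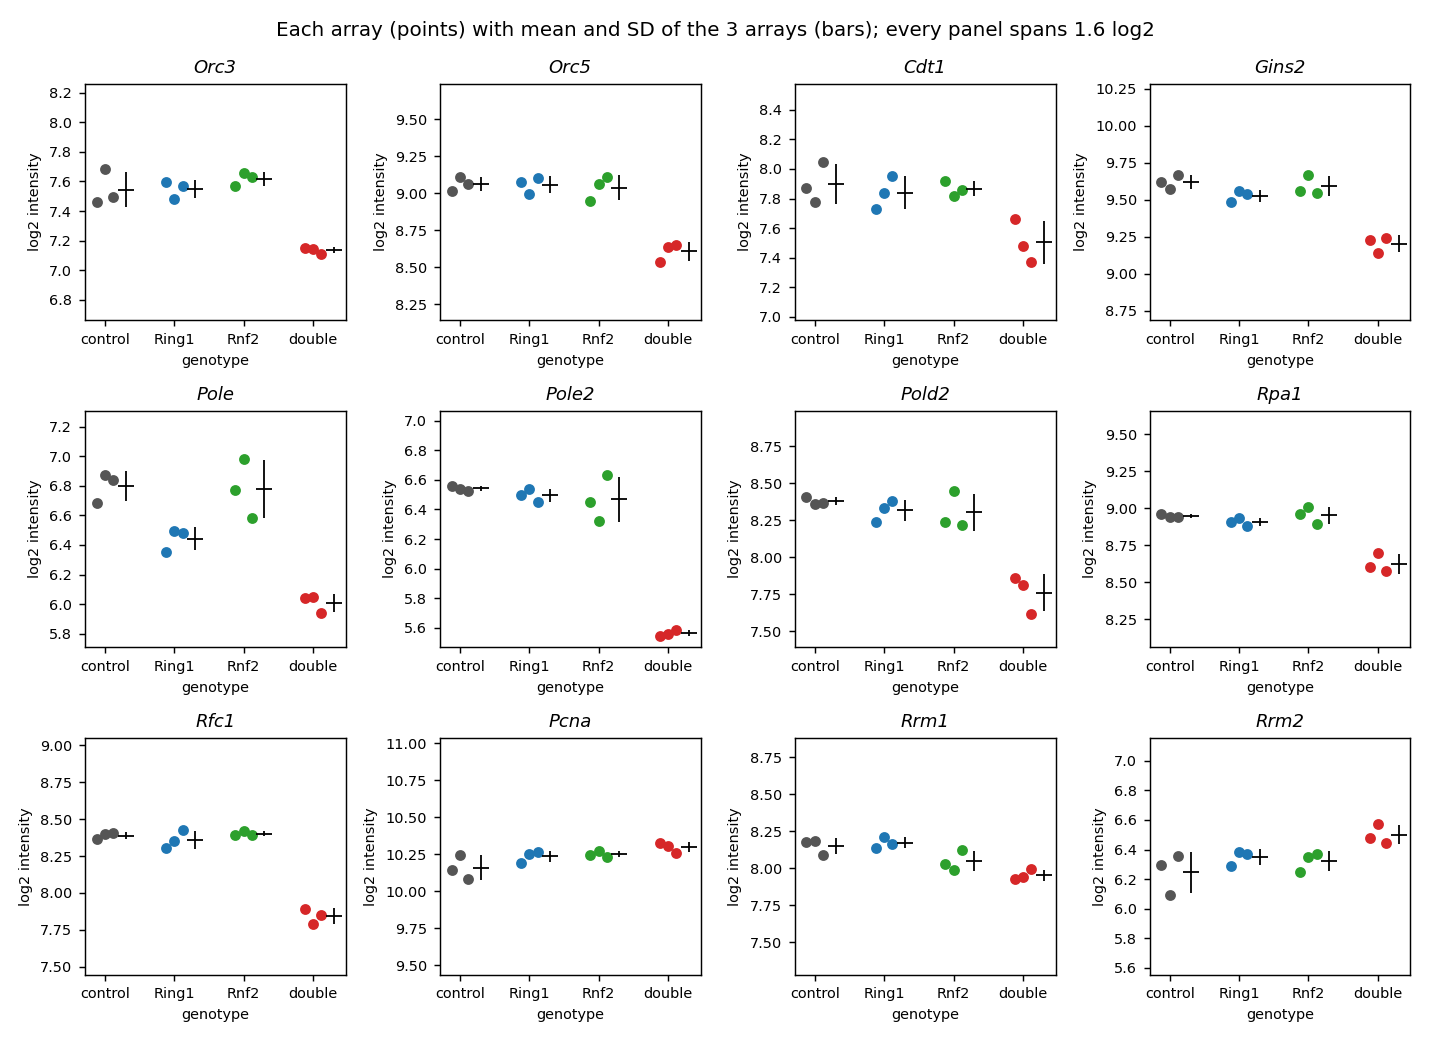
Log2 intensity (vertical axis) of 12 replication genes on every array (points) by genotype (horizontal axis), with the mean and SD of the 3 arrays as bars, each panel spanning the same log2 range. *Pole2*, *Rfc1*, *Orc3* and *Orc5* form 3 groups at one level and a double mutant group below, *Pole* steps down in the Ring1 mutant too, and *Rrm2* is highest in the double mutant.

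RPA coats single-stranded DNA behind the helicase, and its large subunit was called lower alone. *Rpa1* read 8.96, 8.94 and 8.94 in control, 8.90, 8.94 and 8.88 in the Ring1 mutant, 8.96, 9.01 and 8.89 in the Rnf2 mutant and 8.60, 8.70 and 8.57 in the double mutant. All double mutant arrays were below the other 9, with a fall of 0.32 ± 0.058 (limma adjusted p = 0.00088). The smaller subunits *Rpa2* and *Rpa3* differed by 0.041 and 0.13 and were not called.

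Replication factor C opens the Pcna clamp and places it around DNA, and 3 of its 5 subunits were called lower. *Rfc1*, the large subunit specific to this loader, read 8.36, 8.40 and 8.40 in control, 8.30, 8.35 and 8.43 in the Ring1 mutant, 8.39, 8.42 and 8.39 in the Rnf2 mutant and 7.89, 7.79 and 7.85 in the double mutant. The 9 arrays with at least 1 intact gene kept within 0.12 of one another, and the double mutant fell by 0.54 ± 0.057, to 0.69 of control (limma adjusted p = 1.3e-05). *Rfc2* read 6.88, 6.82 and 6.97 in control, 6.73, 7.01 and 6.70 in the Ring1 mutant, 6.84, 6.86 and 7.10 in the Rnf2 mutant and 6.47, 6.47 and 6.53 in the double mutant, a fall of 0.40 ± 0.094 with no overlap (limma adjusted p = 0.0056). *Rfc4* read 5.28, 5.19 and 5.11 in control, 4.94, 4.98 and 4.96 in the Ring1 mutant, 5.02, 4.99 and 4.94 in the Rnf2 mutant and 4.90, 5.02 and 5.03 in the double mutant. In this gene the single mutants lay as low as the double mutant, whose fall of 0.22 ± 0.064 (limma adjusted p = 0.02) lost its call without control replicate 1 or double mutant replicate 1, with an adjusted p of up to 0.26. *Rfc3* and *Rfc5* differed by 0.063 and -0.15, not called.

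*Pcna*, the clamp that holds the polymerases on DNA, read 10.14, 10.25 and 10.08 in control, 10.19, 10.25 and 10.26 in the Ring1 mutant, 10.24, 10.28 and 10.23 in the Rnf2 mutant and 10.33, 10.31 and 10.26 in the double mutant. The double mutant arrays lay above those of control, with a log2 change of 0.14 that was not called (limma adjusted p = 0.099). *Pcna* is the only member with a second probe set, whose mean was 8.99 and whose change was -0.17, so the 2 differ in sign. The Okazaki fragment enzymes *Lig1* (the ligase), *Fen1* (the flap endonuclease) and *Dna2* (a nuclease and helicase) had log2 changes of -0.18, 0.19 and -0.065, none of them called.

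Ribonucleotide reductase makes the deoxyribonucleotides for replication, and its 2 subunits moved in opposite directions. *Rrm1*, the large regulatory and catalytic subunit, read 8.18, 8.18 and 8.09 in control, 8.14, 8.21 and 8.16 in the Ring1 mutant, 8.03, 7.99 and 8.12 in the Rnf2 mutant and 7.93, 7.94 and 7.995 in the double mutant, a fall of 0.20 ± 0.059 (limma adjusted p = 0.023). Rnf2 mutant 2 reached the double mutant range. *Rrm2*, the small subunit that carries the radical in S phase, read 6.29, 6.09 and 6.35 in control, 6.29, 6.39 and 6.37 in the Ring1 mutant, 6.25, 6.35 and 6.37 in the Rnf2 mutant and 6.48, 6.57 and 6.45 in the double mutant. Its double mutant arrays were the highest 3 of the 12, and it rose by 0.25 ± 0.076 (limma adjusted p = 0.022). The *Rrm1* call ended without control replicate 1 or 2 or double mutant replicate 1 or 2 and the *Rrm2* call without control replicate 2 or double mutant replicate 2, with adjusted p up to 0.30 and 0.22. After centring on the array medians *Rrm2* was no longer called, and after centring on the brightest 25% of genes *Rrm1* was not.

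**Figure D3:**
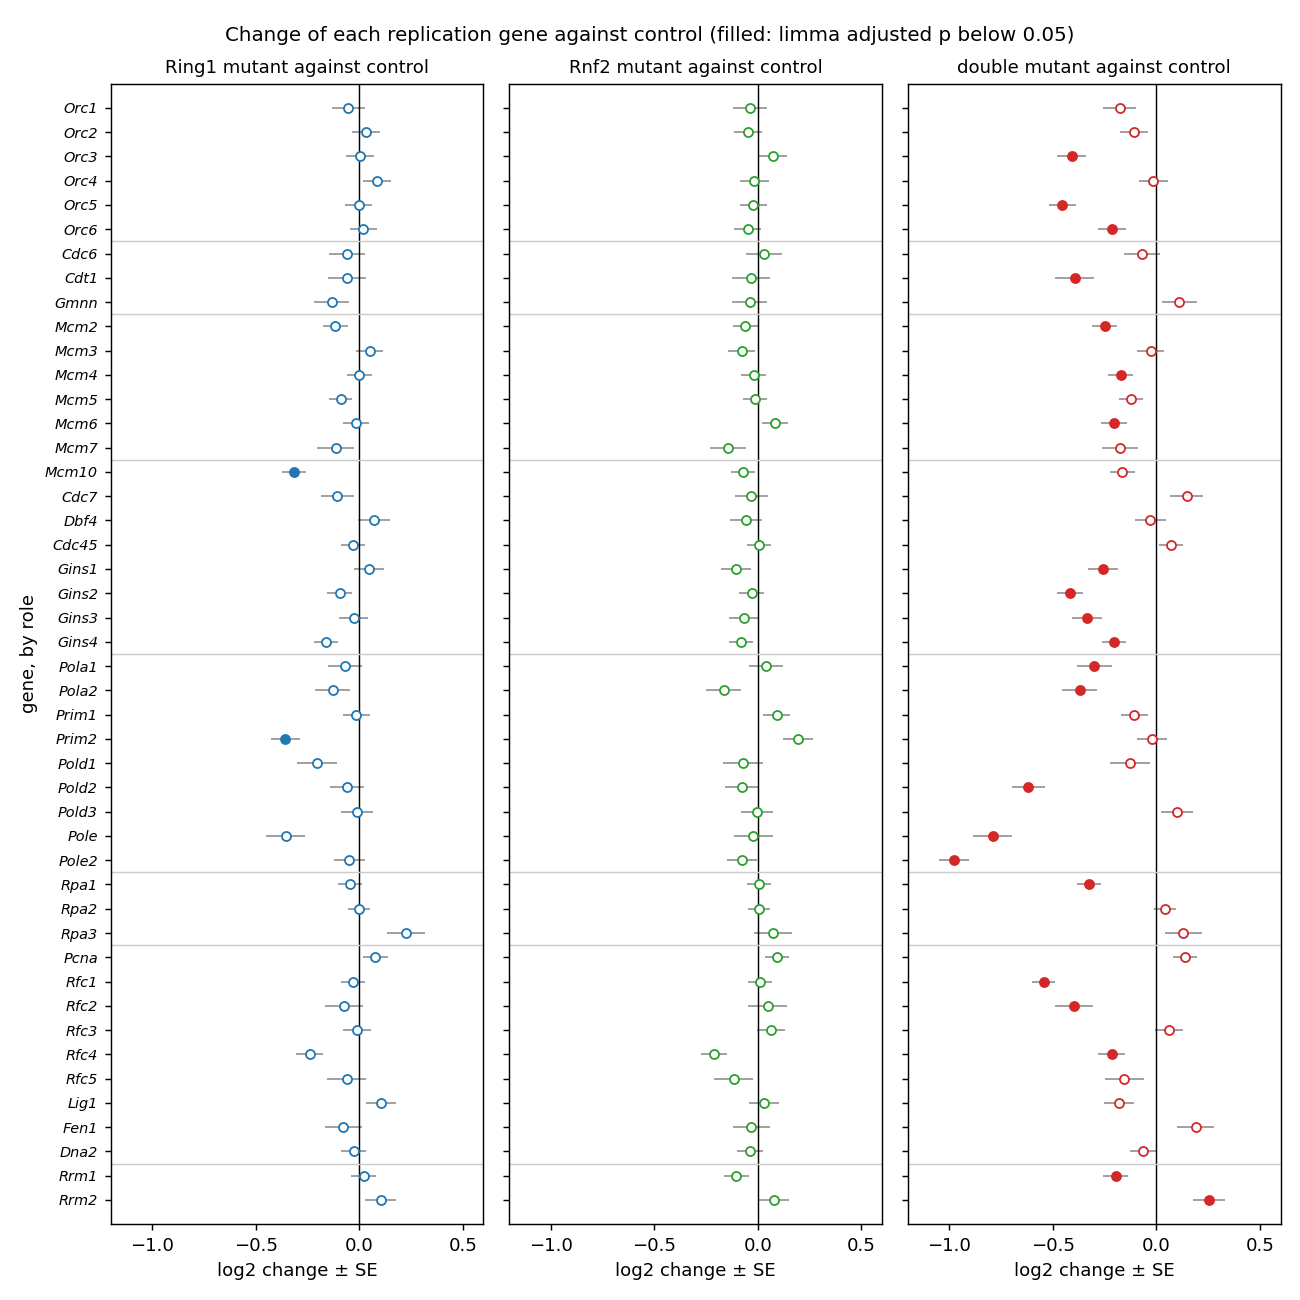
Log2 change against control ± SE (horizontal axis) of each of the 46 replication genes (vertical axis, by role) in the Ring1 mutant, the Rnf2 mutant and the double mutant, with filled points where the limma adjusted p was below 0.05. There are 2 filled points in the Ring1 mutant, 0 in the Rnf2 mutant and 22 in the double mutant.

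Few replication genes were called in either single mutant. In the Ring1 mutant 2 of 46 were called lower and 0 higher by limma, beside 0.473% of all genes lower and 0.301% higher. Among the brightest 25% of genes 0.853% were lower and 0.371% higher. At an unadjusted p below 0.05 there were 5 lower and 1 higher. *Mcm10* read 9.15, 9.13 and 9.005 in control, 8.78, 8.78 and 8.79 in the Ring1 mutant, 9.01, 8.97 and 9.09 in the Rnf2 mutant and 8.94, 8.93 and 8.92 in the double mutant. Its Ring1 mutant arrays were the lowest 3 of the 12, with a fall of 0.32 ± 0.060 (limma adjusted p = 0.031). *Prim2*, the subunit of primase that passes the primer on, read 7.15, 7.28 and 7.20 in control, 6.84, 6.85 and 6.87 in the Ring1 mutant, 7.27, 7.52 and 7.43 in the Rnf2 mutant and 7.13, 7.23 and 7.21 in the double mutant. Here too the Ring1 mutant arrays stood alone at the bottom, with a fall of 0.36 ± 0.071 (limma adjusted p = 0.043), while the double mutant lay at the control level and the Rnf2 mutant had 2 arrays above all others. Both calls are close to the threshold. *Mcm10* kept its call in 10 of 21 other settings and *Prim2* in 7, with adjusted p up to 0.15 and 0.16, and each call ended on leaving out control replicate 1 or 2, any Ring1 mutant array or double mutant replicate 1 or 2. The *Mcm10* call also ended without Rnf2 mutant replicate 1, and the *Prim2* call without control replicate 3, Rnf2 mutant replicate 3 or double mutant replicate 3. *Pole* fell by 0.35 ± 0.095 in the Ring1 mutant with no overlap with control but was not called (limma adjusted p = 0.15). In all, 10 members had their 3 Ring1 mutant arrays below all control arrays and 1 had them above, beside 9.40% and 7.21% of all genes. That share was not computed among the brightest 25% of genes, so nothing particular to the replication genes follows.

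In the Rnf2 mutant 0 of the 46 were called by limma, in a comparison with 0.0974% of all genes higher and 0.0417% lower, and 1 was lower and 1 higher at an unadjusted p below 0.05. The log2 changes ran from -0.21 for *Rfc4* to 0.20 for *Prim2*. The median change was -0.03 in the Rnf2 mutant and -0.04 in the Ring1 mutant.

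Against the Ring1 mutant, the double mutant had 18 replication genes lower and 4 higher, beside 16.7% and 15.0% of all genes and 34.3% and 13.8% of the brightest 25%. The 4 higher were *Gmnn* at 0.24, *Cdc7* at 0.25, *Prim2* at 0.34 and *Fen1* at 0.27 (log2 change), none of which was called against control. The *Gmnn*, *Cdc7* and *Fen1* calls ended without Ring1 mutant replicate 1 or double mutant replicate 1 or 3, and those of *Gmnn* and *Cdc7* without Ring1 mutant replicate 2 as well. For *Gmnn* the call ended also without Ring1 mutant replicate 3, double mutant replicate 2, control replicate 2 or Rnf2 mutant replicate 2. The adjusted p reached 0.29 for *Gmnn*, 0.16 for *Cdc7* and 0.22 for *Fen1*. Against the Rnf2 mutant 17 were lower and 0 higher by limma (20 and 3 at an unadjusted p below 0.05), beside 16.3% and 14.0% of all genes and 35.0% and 12.1% of the brightest 25%. *Prim2*, low in the Ring1 mutant, was also lower in the double mutant than in the Rnf2 mutant, with a log2 change of -0.22 (limma adjusted p = 0.037) that lost its call without Rnf2 mutant replicate 2 or 3 or any double mutant array, with an adjusted p of up to 0.26.

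Set against all 9 arrays of the other 3 genotypes, 17 members had every double mutant array below and 2, *Fen1* and *Rrm2*, had every one above, beside 16.1% and 13.4% of all genes. The 17 were *Orc3*, *Orc5*, *Orc6*, *Cdt1*, *Mcm2*, *Mcm4*, *Mcm6*, *Gins2*, *Gins3*, *Pola1*, *Pold2*, *Pole*, *Pole2*, *Rpa1*, *Rfc1*, *Rfc2* and *Lig1*. Shares of genes clear of the other 9 arrays were not computed among the brightest 25% of genes. Nothing particular to the replication genes therefore follows from these counts.

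Whether Rnf2 deletion had another effect in Ring1-null than in Ring1-intact oocytes was tested as an interaction, the change from the Ring1 mutant to the double mutant minus the change from control to the Rnf2 mutant. It was called by limma for 8 of the 46, all below 0 (14 below and 5 above at an unadjusted p below 0.05), beside 9.03% of all genes below and 10.0% above, and among the brightest 25% of genes 19.6% were called below. *Pole2* had the largest interaction, -0.86 ± 0.10 (log2 ± SE, limma adjusted p = 0.0001), since Rnf2 deletion changed it by -0.93 without Ring1 and by -0.075 with Ring1. *Rfc1* had an interaction of -0.53 ± 0.081 (limma adjusted p = 0.00063), *Orc3* of -0.48 ± 0.097 (limma adjusted p = 0.0038), *Pold2* of -0.48 ± 0.12 (limma adjusted p = 0.012) and *Orc5* of -0.43 ± 0.092 (limma adjusted p = 0.0057). In these 5 genes neither single mutant's mean differed from control by more than 0.076. *Gins2* (-0.29 ± 0.086, limma adjusted p = 0.031), *Rpa1* (-0.29 ± 0.082, limma adjusted p = 0.029) and *Pole* (-0.41 ± 0.13, limma adjusted p = 0.049) lost the call without some single arrays. These were control replicate 2, Ring1 mutant replicate 2 and Rnf2 mutant replicate 2 for all 3. Further arrays were control replicate 1 and Ring1 mutant replicate 3 for *Gins2* and *Pole*, control replicate 3, Rnf2 mutant replicate 1 and double mutant replicates 1 and 3 for *Rpa1* and *Pole*, double mutant replicate 2 for *Gins2* and *Pole*, and Ring1 mutant replicate 1 for *Rpa1*, with adjusted p up to 0.10, 0.12 and 0.11. For the other 13 members called lower in the double mutant, the interaction was not called.

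The scaling of the arrays bears on every one of these counts. Centring on the array medians moved the median change of all genes in the double mutant from -0.04 to -0.17, and centring on the brightest 25% of genes moved it to 0.07. The replication genes then had medians of -0.30 and -0.06, with 30 called lower in the first and 12 lower and 7 higher in the second. Their median lay 0.14 below that of all genes, a distance that centring cannot change because it shifts every gene of an array alike. It lay nearer to that of the brightest 25%, at -0.17 beside -0.11 in the deposited scaling. After quantile normalization the replication genes' median lay 0.05 below that of all genes, with 15 lower and 5 higher. Of the 21 lower calls 12 held in all 21 other settings: *Orc3*, *Orc5*, *Cdt1*, *Gins2*, *Gins3*, *Pola2*, *Pold2*, *Pole*, *Pole2*, *Rpa1*, *Rfc1* and *Rfc2*. The other 9 lost the call with centring on the brightest 25% of genes. *Mcm2* lost it in no other setting, and each of the remaining 8 lost it in at least 1 more.

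**Figure D4:**
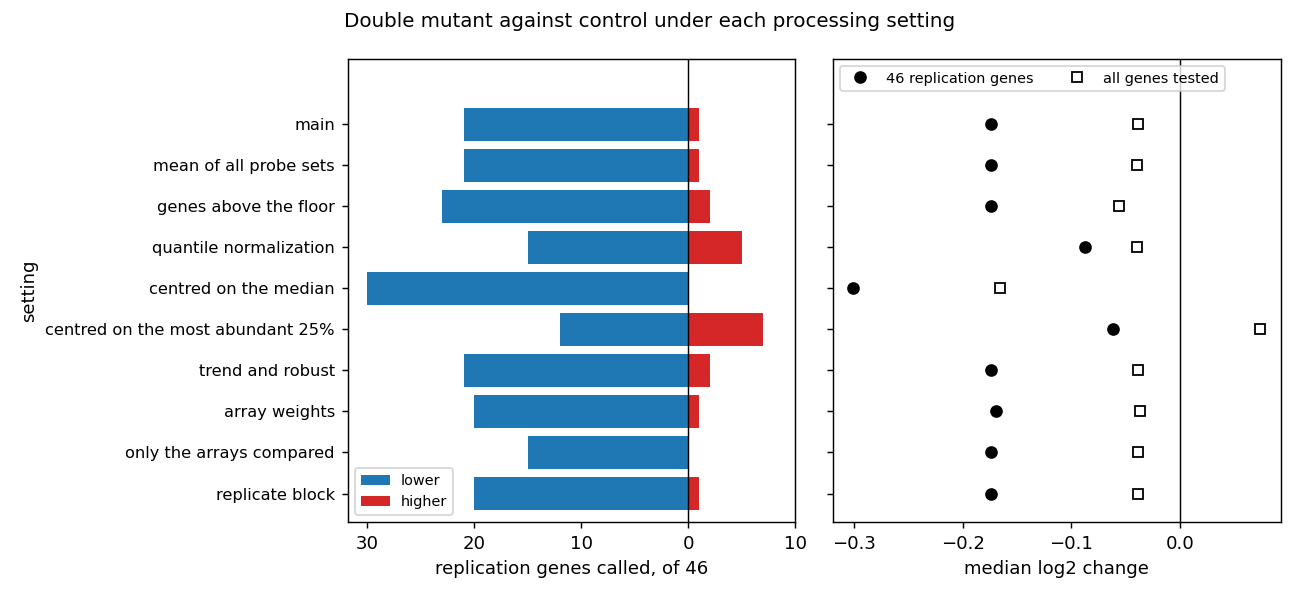
Number of the 46 replication genes called lower (bars to the left) or higher (bars to the right) in the double mutant against control, and the median log2 change of the 46 and of all genes tested, under each processing setting (vertical axis). The count of lower calls runs from 12 to 30 and that of higher calls from 0 to 7.

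Other replication genes outside the 46 were read from lists drawn up by function. Of 26 further genes of origins and forks, 12 were lower and 2 higher in the double mutant, with a median log2 change of -0.19. The 46.2% lower stands beside 17.5% of all genes and 37.6% of the brightest 25%, which hold 14 of the 26, and centring on the brightest 25% gave 6 lower and 5 higher. *Chtf18*, a subunit of an alternative Pcna loader, fell by 0.73 ± 0.092 (limma adjusted p = 6.1e-05), and *Donson*, a factor of helicase activation and fork stability, fell by 0.58 ± 0.074 (limma adjusted p = 6.1e-05). Of 15 genes of nucleotide supply, 11 of them among the brightest 25%, 6 were lower (40.0%) and 4 higher (26.7%). *Rrm2b*, the p53-inducible small subunit of ribonucleotide reductase, fell by 0.60 ± 0.061 (limma adjusted p = 1.0e-05) where *Rrm2* had risen, and *Tk1*, thymidine kinase, fell by 0.56 ± 0.069 (limma adjusted p = 5.0e-05). Of 10 genes that rebuild chromatin behind the fork, 9 of them among the brightest 25%, 3 were lower, beside 37.6% of all genes that bright. Among the 3 were *Chaf1a*, the large subunit of chromatin assembly factor 1, which fell by 0.54 ± 0.061 (limma adjusted p = 2.7e-05), and *Dnmt1*, the maintenance DNA methyltransferase, which fell by 0.32 ± 0.051 (limma adjusted p = 0.00039). After centring on the array medians 19 genes of origins and forks and 6 of chromatin were lower, and of nucleotide supply 7 were lower and 2 higher. Centring on the brightest 25% gave 5 lower and 6 higher of nucleotide supply, and 2 lower and 2 higher of chromatin. After quantile normalization these were 5 lower and 4 higher of nucleotide supply, and 2 lower and 1 higher of chromatin.

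Of 21 genes of S phase entry, 9 were higher (42.9%) and 4 lower (19.0%) in the double mutant, with a median log2 change of 0.13. Beside these stand 14.4% higher and 17.5% lower over all genes. Among the brightest 25%, which hold 11 of the 21, 12.7% were higher and 37.6% lower. The split depended on the scaling, with 4 higher and 7 lower after centring on the array medians and 12 higher and 3 lower after centring on the brightest 25%. The means of 2 of the 21, *E2f3* and *Ccna1*, were below the floor of detection. *Ccne1*, cyclin E1, which drives entry into S phase, rose from a mean of 5.87 to 7.74, by 1.87 ± 0.071 (limma adjusted p = 2.2e-09). *Ccna1*, the germ-cell cyclin A, was called higher (limma adjusted p = 4.9e-08), from a control mean of 2.87, below the floor, to a double mutant mean of 4.04, just above it, so no size of the change is given.

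Markers of other cells were read beside these results. Beside the counts in the double mutant stand 17.5% lower and 14.4% higher over all genes, and 37.6% and 12.7% among the brightest 25%. Of 13 oocyte markers 5 were lower and 1 higher, with *Figla*, an oocyte transcription factor, down by 0.89 ± 0.092 and *Kit*, the receptor on the oocyte surface, down by 0.51 ± 0.056, so falls of this size were not limited to replication genes. Of 20 granulosa and cumulus markers 11 were above the floor. Among the defining genes, *Fshr*, *Amh* and *Lhcgr* were below it, whereas the inhibin subunits *Inha* and *Inhba* had means of 6.35 and 6.29 over the 12 arrays, the steroidogenic genes *Cyp11a1* and *Star* 6.01 and 4.70, and the transcription factor *Foxl2* 3.85. The lowest log2 changes of the list in the double mutant were those of *Cyp11a1* at -1.28 ± 0.66 and *Star* at -1.07 ± 0.52 (± SE), neither of them called (limma adjusted p = 0.17 and 0.15). The 20 summed to a log2 of 10.0 to 10.5 in control, 9.90 to 10.2 in the Ring1 mutant, 10.3 to 10.7 in the Rnf2 mutant and 10.1 to 10.5 in the double mutant, with 3 higher and 2 lower, including *Gata4* at 1.23 ± 0.076 and *Cyp19a1* at -0.78 ± 0.070 (log2 change ± SE). The 12 stromal and endothelial markers, 7 above the floor, summed to 9.55 to 9.57 in control and 9.24 to 9.25 in the double mutant, with 2 higher and 2 lower. The 2 lower were *Myh11*, a smooth muscle myosin, which fell by 0.97 ± 0.068, and *Pecam1*, an endothelial adhesion molecule, which fell by 0.32 ± 0.053. These 2 were the brightest of the list and weigh most in its sum. The 2 higher were *Dcn*, from a control mean of 3.28, below the floor, to 3.91, and *Kdr*, from 3.87 to 4.19. Of the 12 changes 6 were below 0 and 6 above. Of 8 blood and immune markers 3 were above the floor, the macrophage gene *Cd68* (mean 3.99), the T cell gene *Cd3e* (4.06) and the complement gene *C1qb* (6.64), and the leukocyte marker *Ptprc* was below it. The 8 summed to 7.24 to 7.27 in control and 7.89 to 8.04 in the double mutant. *C1qb*, the brightest of them, rose by 1.05 ± 0.11. *Cd68*, close to the floor with a control mean of 3.86, rose by 0.34 ± 0.11. No other of the 8 was called, and 5 changes were below 0 and 3 above, with *C1qa*, a partner gene of *C1qb*, at -0.13. The part of these cells in the changes of the replication genes was not tested. Of 10 markers of proliferating cells, 3 were lower and 0 higher, with 6 changes below 0 and 4 above. Among the 3 were *Cenpf*, a kinetochore protein, lower by 0.42 ± 0.060, and *Plk1*, a mitotic kinase, lower by 0.23 ± 0.059. The 10 summed to 12.90 to 12.92 in control and 12.84 to 12.88 in the double mutant. Among all the genes of these lists, 1 was called in a single mutant: *Nme1*, a nucleoside diphosphate kinase, at -0.45 ± 0.082 (log2 change ± SE, limma adjusted p = 0.028) in the Ring1 mutant.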

How the data were processed

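RNA of pooled germinal vesicle oocytes was measured on 12 Affymetrix whole-transcript arrays, 3 for each of 4 genotypes, grouped by the genotype in the labels. The deposited values are log2 intensities, 1 per probe set and array, and were used as deposited. Per the submitters' processing notes, R 2.10.0 with the affy package was used. The sources used here do not give the background correction, the summarisation, the normalization or the genome build. The log base was read from the range of the values. Of 34760 probe sets, 23334 named 1 gene, 1278 several and 10117 none, and 31 were not listed in the annotation. These gave 21565 genes (1046 with several probe sets, of which the highest mean was kept). Of the probe sets naming 1 gene, names were updated through the gene number for 20134, an accession for 146, a symbol for 859 and an older symbol for 602, and kept as filed for 1593. Array medians ran from 3.81 to 3.93, and precision is limited by the 3 arrays per genotype.

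All 12 arrays were fitted in limma 3.58.1 (R 4.3.3), with a mean per genotype, 6 comparisons, and Benjamini-Hochberg adjustment over all genes within each comparison. Calls were made below an adjusted p of 0.05. The procedure was tested on simulated data, and the outcome of that test is not reported here. Values on every array are given for members called in the double mutant, up to the 4 with the smallest adjusted p per role, for the member with the highest mean per role, and for members called in a single mutant or the interaction. From each further list, up to 2 called genes with the smallest adjusted p are named. The markers *Fshr*, *Amh*, *Lhcgr*, *Inha*, *Inhba*, *Cyp11a1*, *Star*, *Foxl2*, *Ptprc*, *Cd3e*, *C1qa*, *Dcn* and *Kdr* are named to describe their lists. *E2f3* is named as below the floor, and *Lig1*, *Fen1*, *Gmnn* and *Cdc7* because a small count falls on them. All of these are named outside this rule and after their values were seen. The members, the lists and the tests were chosen with earlier results of these data known. Promoters are those of RefSeq for GRCm38.p6. The 8 members without an entry are *Gins1*, *Gins2*, *Gins4*, *Gmnn*, *Mcm4*, *Pole*, *Prim2* and *Rfc2*. Other settings were the mean of all probe sets, a filter at the floor, quantile normalization, 2 centrings, another variance model, array weights, only the arrays compared, the replicate number as a block, and leaving out each array. The scalings of the function lists were added after seeing the data.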

Additional observations from a re-analysis of the deposited data

Results flagged for a closer look

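In all, 8 replication genes drew attention because deleting Rnf2 changed them differently in Ring1-null oocytes than in oocytes with Ring1, by limma's interaction test over all genes. These are 17.4% of the 46, beside 9.03% of all genes and 19.6% of the brightest 25% called below 0. Nothing particular to the replication genes follows from the count. The interaction (log2, negative where the fall was larger without Ring1) was -0.86 for *Pole2*, -0.53 for *Rfc1*, -0.48 for *Orc3*, -0.48 for *Pold2*, -0.43 for *Orc5*, -0.41 for *Pole*, -0.29 for *Gins2* and -0.29 for *Rpa1*. *Pole2*, *Rfc1*, *Orc3*, *Pold2* and *Orc5* kept the call in all 20 other settings. *Pole*, *Gins2* and *Rpa1* kept it in 9, 11 and 10 of the 20. Single arrays were checked by leaving each out and by array weights, and no outlier test was run within groups of 3.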

How the results depend on the processing

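Against control, the count of replication genes higher in the double mutant (1) became 2 with genes above the floor and 5 with quantile normalization. It became 0 with arrays centred on the median, 0 with only the arrays compared and 7 with centring on the brightest 25% of genes. With the trend and robust variance model it was 2. The count lower (21) became 30 with the median, 15 with quantile normalization, 15 with only the arrays compared and 12 with the brightest 25%. Here and for the other comparisons, smaller relative shifts are not listed. In the Ring1 mutant the count lower (2) became 1 with quantile normalization, 0 with the median and 1 with the brightest 25%. It became 0 with only the arrays compared, 1 with the replicate block and 3 with trend and robust. Against the Ring1 mutant the double mutant had 1 higher and 25 lower with the median and 7 higher and 11 lower with the brightest 25%. Against the Rnf2 mutant it had 1 higher with quantile normalization, 5 higher with the brightest 25%, 1 higher with trend and robust, 26 lower with the median and 11 lower with the brightest 25%. The interaction was above 0 for 2 with genes above the floor, 1 with quantile normalization, 5 with the brightest 25% and 1 with trend and robust. It was below 0 for 15 with the median, 11 with genes above the floor, 11 with trend and robust and 5 with the brightest 25%. The cause was not tested. Leaving out 1 array gave 0 to 2 higher and 14 to 21 lower against control (14 without control replicate 1), 0 to 2 lower in the Ring1 mutant, 1 to 4 higher and 12 to 18 lower against the Ring1 mutant, 0 to 1 higher and 13 to 17 lower against the Rnf2 mutant, and 0 to 1 above and 5 to 8 below 0 for the interaction. With the replicate number as a block the double mutant had 20 lower and 1 higher. Deviations of same-numbered arrays correlated at -0.16 to 0.21 over 18 pairs, 4 of them over 0.1. Those of different-numbered arrays correlated at -0.15 to 0.15 over 36 pairs, 1 of them over 0.1. Whether the numbers pair the arrays was not settled. Over single members no called value changed sign, with 5411 values on the same side of the threshold, 232 that lost the call and 107 that gained it. Over all genes the double mutant had 3116 higher and 3780 lower, 2234 and 7506 with the median, and 4750 and 2322 with the brightest 25%. The Ring1 mutant's 65 higher and 102 lower became 115 and 186 with trend and robust and 16 and 31 with only the arrays compared, and the Rnf2 mutant's 21 and 9 became 40 and 23, and 4 and 2. With the replicate block the Rnf2 mutant had 13 and 5. With 3 arrays a genotype, the smallest change called among the members in the double mutant against control was -0.17 (*Mcm4*).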

Other observations

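Several genes next to the replication set also had a Ring1 by Rnf2 interaction (log2 ± SE, limma adjusted over all genes). *Ccne1*, cyclin E1, had one of 1.70 ± 0.10 (limma adjusted p = 3.1e-07), so it rose more on Rnf2 deletion without Ring1. The interaction was below 0 for *Chtf18* (-0.69 ± 0.13, limma adjusted p = 0.0026), *Donson* (-0.44 ± 0.10, limma adjusted p = 0.011) and *Rrm2b* (-0.43 ± 0.086, limma adjusted p = 0.0039). It was also below 0 for *Chaf1a* (-0.42 ± 0.087, limma adjusted p = 0.0048) and *Dnmt1* (-0.33 ± 0.072, limma adjusted p = 0.0062), which act on chromatin and DNA methylation behind the fork. *Nme1*, lower in the Ring1 mutant, was higher in the double mutant than in control by 0.62 ± 0.082 (limma adjusted p = 8.6e-05), and its interaction was 1.08 ± 0.12 (limma adjusted p = 4.1e-05).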
